A study of Mus musculus with 15 samples.

Results

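Transcript levels of 10 genes of the p53 pathway and the DNA damage checkpoint were followed in mouse haematopoietic stem cells (HSCs) with age and under a Thbs1 knockout label. The genes were Trp53, Mdm2, Cdkn1a, Ccng1, Phlda3, Trp53inp1, Bax, Bbc3, Chek1 and Chek2. They were taken by gene symbol from a table of 20696 genes, and each symbol matched 1 entry. No cut-off on their values was used, but the set was chosen with earlier results of these data known. Levels are FPKM, fragment counts scaled to the length of the gene and the size of the library. Genes of unlike length and libraries of unlike size can thus be set side by side. This scaling does not by itself correct for differences in RNA composition between libraries. HSCs were sorted from bone marrow, and bulk libraries were prepared by the SMART-Seq v4 method with 2 ng of RNA each. There were 3 groups of 5 libraries: young controls aged 3 months, aged controls aged 18 months, and mice labelled aged Thbs1 knockout, also aged 18 months. Strain, knockout allele, sorting gate and any pooling of animals were not stated in the sources used. The labels do not tie the 5 libraries of a group to separate animals, so the p-values measure the spread between these libraries, which may in part be technical. Library names in the table put 2 male and 3 female libraries among the young controls, 3 and 2 among the aged controls, and 2 and 3 among the libraries labelled knockout.

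p53, the product of Trp53, is a transcription factor that is held at a low level by the ubiquitin ligase Mdm2 and is stabilised when DNA is damaged. The kinases Chk1 and Chk2, encoded by Chek1 and Chek2, pass on the signal from stalled replication forks and from DNA breaks, and both can phosphorylate p53. Active p53 raises transcription of genes that stop the cell cycle, that promote apoptosis, and that restrain p53 itself, Mdm2 among them. In HSCs the pathway is known for its part in quiescence and in the response to irradiation. Because much of p53 control acts on the protein, the Trp53 transcript alone does not report p53 activity.

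Promoter sequence from RefSeq (GRCm38.p6), covering 250 bases before to 50 after an annotated start site, was matched for 9 of the 10 genes and 12 start sites. The stretches below are shown because they hold the letters that p53 recognises, or, for Chek1, the E2F-type motif common in promoters of replication genes. All are written 5′ to 3′ on the strand of the gene. Capitals mark a p53 consensus half-site in Bax, Mdm2 and Trp53, a run of 20 bases within 1 mismatch of a pair of adjoining half-sites in Ccng1 and Cdkn1a, and the motif GGCGGGAA in Chek1.
Cdkn1a: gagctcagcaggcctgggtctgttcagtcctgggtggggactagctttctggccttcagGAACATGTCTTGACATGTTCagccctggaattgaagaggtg
Ccng1: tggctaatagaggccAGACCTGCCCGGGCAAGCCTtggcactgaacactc
Mdm2: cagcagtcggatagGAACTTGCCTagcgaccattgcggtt
Bax: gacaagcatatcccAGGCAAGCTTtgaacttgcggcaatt
Trp53: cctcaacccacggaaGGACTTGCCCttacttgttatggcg
Chek1: tgacgcaagcaggttttGGCGGGAA
The Cdkn1a stretch is chr17:29090869-29090968 on the plus strand, and its paired site begins 51 bases before the more upstream annotated start. The Ccng1 stretch is chr11:40755447-40755496 on the minus strand, with the paired site beginning 195 bases before the start. The Mdm2 stretch is chr10:117710919-117710958 and the Bax stretch chr7:45467074-45467113, both on the minus strand, with half-sites beginning 186 and 201 bases before the start. The Trp53 stretch is chr11:69580269-69580308 on the plus strand, with its half-site beginning 75 bases before the start. The Chek1 stretch is chr9:36726609-36726633 on the minus strand and lies after the start, where the motif begins 42 bases downstream. Among 32851 promoter windows of the same length, both strands searched, 8.36% held a half-site, 0.088% held a 20-base run within 1 mismatch of the pair, and 2.19% held GGCGGGAA. Bbc3 held GGCGGGAA as well, and the windows of Phlda3 and Chek2 held none of these. The motifs were chosen after the windows had been seen. A match describes the letters and does not show binding.

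Reads in genes came to between 16.65e6 and 28.62e6 per library. Thbs1, the gene named in the knockout label, did not have a lower level under that label: mean FPKM values of 4.24 (young controls), 2.90 (aged controls) and 10.4 (labelled libraries) were recorded, with overlapping ranges. The table also carries a library name above each sample title, and for 10 of the 15 columns GEO's descriptions attach that library name to a sample of another group. Columns were grouped by title throughout, and no gene of the set was called in the 3 group comparisons when they were grouped by description instead, so the age calls below rest on the titles. Sex was read from the library names, and comparisons by sex and relations between genes were not rerun under the other grouping. The rRNA-like share was defined from genes annotated as ribosomal RNA, mitochondrial rRNA among them, a few rRNA repeat genes and the protein-coding gene Lars2. This share was over 1% of reads in 7 libraries (at most 4.49%, 6 of them male), with the highest shares in labelled knockout libraries 2 and 5. The HSC markers Kit, Procr and Hlf were present in every library. Of 10 HSC markers, Procr, Ly6a and Hoxb5 were called higher with age (limma adjusted p = 0.00662, 0.013 and 0.0244). The other 7 were not called, beside 4.42% of all genes called. Ly6a alone was called between labelled libraries and aged controls, lower in the labelled ones (limma adjusted p = 0.00432), beside 1.55% of all genes. Ms4a1 and Ebf1 of the B cell list, Cd3d and Cd3g of the T and NK cell list, and Lepr and Col1a1 of the stromal list stayed at or under 0.36 FPKM. Other markers of these lists were higher: Cd79b was 29.2 to 63.8 FPKM, Cd79a reached 1.41 and Col1a2 reached 3.32. Of the T and NK cell list, Nkg7 was 21.9 to 117 FPKM and Klrb1c 2.07 to 22.6. Of the 5 megakaryocyte and platelet markers, Pf4 was above 50 FPKM in every library and Gp9 was 58.9 to 129.5. Ppbp was 1.76 to 26.4 FPKM, Gp1ba 3.01 to 9.67, and Gp6 at or under 0.13. Ppbp was called lower with age and in labelled libraries against young controls (limma adjusted p = 0.0117 and 0.00455). The other 3 tested markers were not called in either comparison, beside 4.42% and 1.63% of all genes called.

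The 10 genes differed widely in level per length. Trp53 was the most abundant at a mean of 94.0 FPKM over the 15 libraries, followed by Bax (32.7), Chek2 (13.4), Mdm2 (10.9), Bbc3 (6.61), Ccng1 (6.53), Cdkn1a (5.27), Phlda3 (4.60), Trp53inp1 (1.67) and Chek1 (1.63). Trp53 ranked 598th of the 20696 genes by mean level, whereas Chek1 ranked 10125th. The lowest Trp53 value (79.31) lay above the highest Bax value (42.89), and the lowest Bax value (24.54) above the highest of Chek2 (17.54). From Chek2 downward, the ranges of neighbours in this order overlapped. The plot of FPKM by library shows all values.

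**Figure D1:**
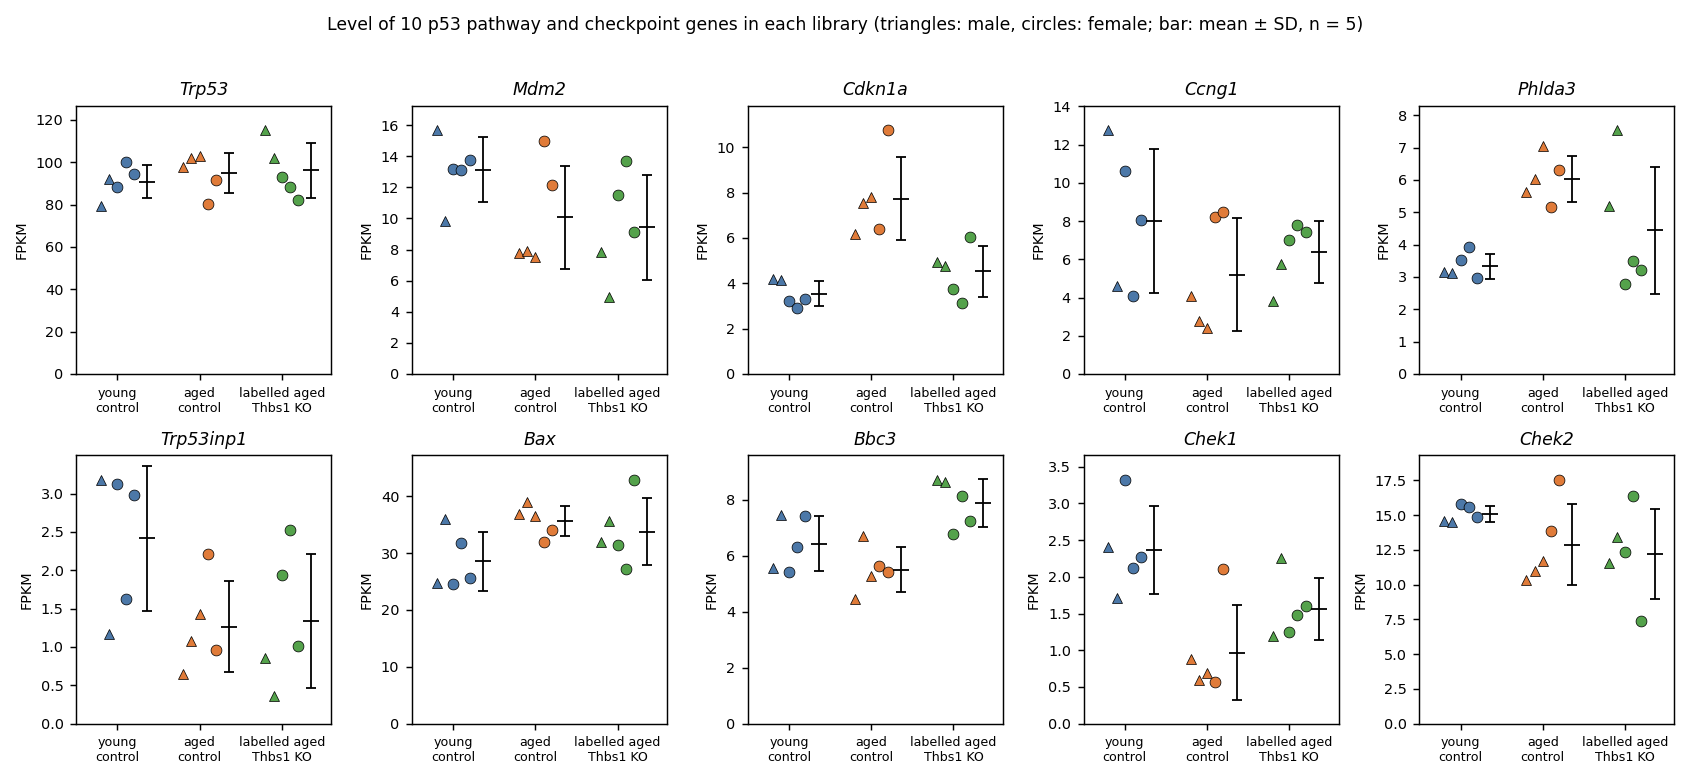
FPKM of the 10 genes in each library (y axis, from 0, with its own scale for each gene) by group (x axis), with triangles for male and circles for female libraries and a bar for the mean ± SD of each group (n = 5). Cdkn1a and Phlda3 are higher in all 5 aged controls than in all 5 young controls, and 1 aged control lies apart from the other 4 for Chek1.

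With age, Cdkn1a and Phlda3 rose and Chek1 fell, while the Trp53 transcript was not called. These were the 3 of 10 genes called by limma at an adjusted p under 0.05, against 4.42% of the 11345 genes tested. voom on reads recovered from the table called 2 of the 10, and leaving out 1 library at a time left 1 to 3 called. The median log2 difference of the 10 genes was -0.21, beside -0.02 for all tested genes. Between libraries labelled aged Thbs1 knockout and aged controls, 0 of the 10 were called by limma (background 1.55%), 0 by voom, and 4 had an unadjusted p under 0.05, beside 12.9% of all genes. Against young controls, 0 of the 10 were called by either method (background 1.63%), and 2 had an unadjusted p under 0.05, beside 21.2% of all genes. The median log2 difference of the 10 genes was -0.04 against aged controls (all genes -0.03) and -0.07 against young controls (all genes -0.06). Each group enters 2 of these 3 comparisons, so they are not independent.

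**Figure D2:**
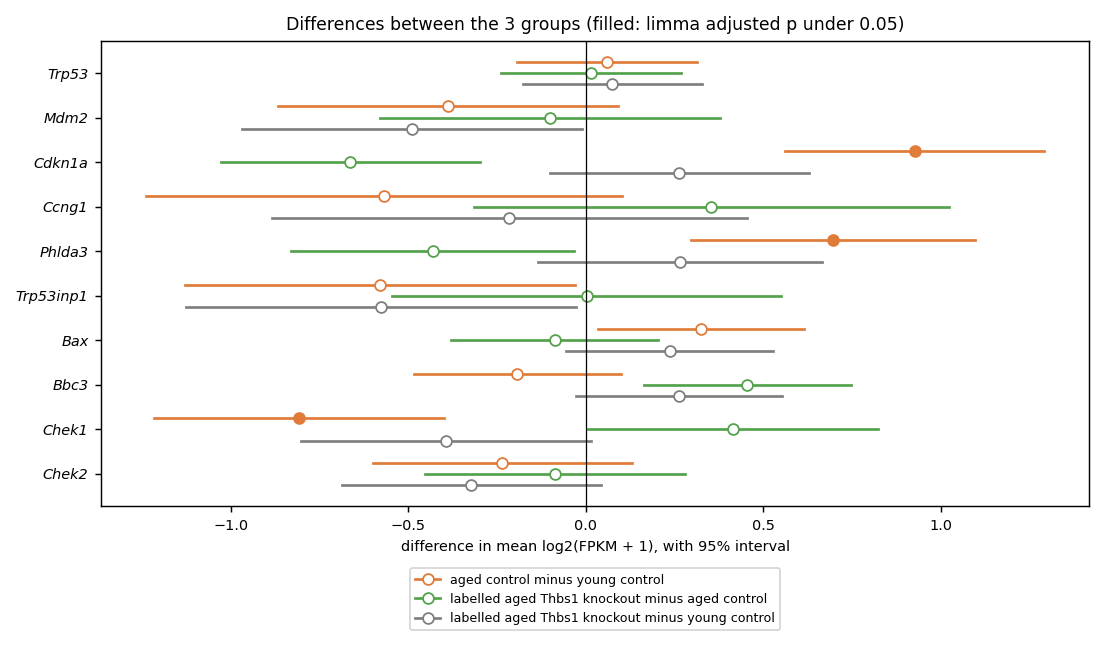
Differences in mean log2(FPKM + 1) for each gene (x axis) in the 3 comparisons, with 95% intervals from limma; filled points have an adjusted p under 0.05. Only Cdkn1a, Phlda3 and Chek1 have a filled point, each in the comparison of aged with young controls.

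Trp53 (ENSMUSG00000059552, GRCm38 chromosome 11, 69580359 to 69591873) measured 79.31, 92.24, 88.28, 100.26 and 94.31 FPKM in the young controls, numbered 1 to 5. The aged controls had 97.63, 101.86, 103.07, 80.23 and 91.57, and the labelled libraries 115.20, 102.18, 92.92, 88.28 and 82.15, in the same order of number, which is kept for every gene below. All 3 groups overlapped, and the 4 highest values were in male libraries of the 2 aged groups. Mean levels were 90.9 ± 7.78, 94.9 ± 9.34 and 96.2 ± 12.9 (SD, n = 5 each). The log2 difference between aged and young controls was 0.06, with a 95% interval of -0.19 to 0.31 (limma adjusted p = 0.791). That between the labelled libraries and aged controls was 0.015, with an interval of -0.24 to 0.27 (limma adjusted p = 0.974).

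Mdm2 (ENSMUSG00000020184, chromosome 10, 117688875 to 117710758), the ligase that marks p53 for degradation and is itself a p53 target, measured 15.68, 9.86, 13.20, 13.14 and 13.74 FPKM in the young controls. In aged controls it was 7.77, 7.90, 7.54, 14.95 and 12.16, and in the labelled libraries 7.86, 4.94, 11.51, 13.72 and 9.13. The low aged controls were the 3 males, the lowest labelled libraries were the 2 males, and young male 2 lay within the ranges of both aged groups. All 3 groups overlapped. The means were 13.1 ± 2.10, 10.1 ± 3.34 and 9.43 ± 3.37 (SD, n = 5 each), and none of the 3 group differences passed the test (limma adjusted p = 0.336, 0.89 and 0.228 for aged against young, labelled against aged and labelled against young). Mdm2 was the only one of the 10 genes called between the sexes with group in the model: females were higher by a log2 difference of 0.53 (SE 0.14, limma adjusted p = 0.0258), in a comparison that called 12.9% of all genes. The call was lost on leaving out young control 2, aged control 3, 4 or 5, or labelled library 2 (limma adjusted p = 0.0511 to 0.0768).

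Among the targets that act on the cell cycle, Cdkn1a (ENSMUSG00000023067, chromosome 17, 29090976 to 29100727) had the age difference with the smallest p of the 10 genes. It encodes p21, an inhibitor of cyclin-dependent kinases that can arrest cells before replication. The 5 young controls had 4.17, 4.13, 3.23, 2.93 and 3.29 FPKM, and the 5 aged controls 6.16, 7.55, 7.81, 6.41 and 10.76. Every aged control lay above every young control; 4.57% of tested genes separated the groups in this direction. Means were 3.55 ± 0.565 and 7.74 ± 1.83 (SD, n = 5 each), a rise of 0.93 in log2(FPKM + 1) (SE 0.17, limma adjusted p = 0.00308). The age difference was 0.66 in males (limma adjusted p = 0.0985) and 1.17 in females (limma adjusted p = 0.0271), and the difference between these was not called (0.51, limma adjusted p = 0.657). Over both sexes it passed the test under each of the 15 omissions of 1 library.

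In the labelled libraries Cdkn1a measured 4.94, 4.76, 3.75, 3.11 and 6.05 FPKM, with a mean of 4.52 ± 1.14 (SD, n = 5). All 5 lay below the lowest aged control, a separation found for 1.6% of tested genes, and they overlapped the young controls. No gene of the 10 separated the labelled libraries from the young controls, as 4.5% of tested genes did. Relative to aged controls it stood at -0.66 (SE 0.17), which did not pass the test over all genes (limma adjusted p = 0.0659). It did pass without labelled library 5 (-0.76, limma adjusted p = 0.0252) and without libraries 2 and 5 (-0.82, limma adjusted p = 0.0297). With the rRNA-like share as a covariate, a setting added after the data were seen, it also passed (-0.735, limma adjusted p = 0.0369). Of the 15 omissions of 1 library only 1 passed, that of library 5, and the limma adjusted p reached 0.147. Quantile normalization, no filter on low genes, voom and sex as a covariate did not pass (adjusted p = 0.107, 0.107, 0.0752 and 0.0633). Grouped by description, the difference turned to 0.459 (limma adjusted p = 0.855). Against young controls the difference was 0.26 (95% interval -0.10 to 0.63, limma adjusted p = 0.366). The natural killer cell receptor gene Klrb1c also had its highest mean in aged controls, with 2.66, 17.8 and 6.88 FPKM in the 3 groups. The HSC marker Ly6a did so too, with 155, 284 and 137 FPKM. The summed FPKM of the 4 measured T and NK cell markers ranged from 53.1 to 104 (young controls), 67.2 to 134 (aged controls) and 29.1 to 61.1 (labelled libraries), with Cd3d and Cd3g near 0 throughout. The part of cells with these markers in the Cdkn1a result was not tested. In bulk RNA, a change in the number of cells that express a gene and a change in RNA per cell cannot be told apart.

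Ccng1 (ENSMUSG00000020326, chromosome 11, 40748552 to 40755311) encodes cyclin G1, a p53 target that works with a phosphatase to regulate Mdm2. The young controls had 12.76, 4.61, 10.62, 4.06 and 8.04 FPKM, the aged controls 4.09, 2.78, 2.40, 8.20 and 8.49, and the labelled libraries 3.82, 5.77, 7.02, 7.82 and 7.45. Its spread was wide in the controls and the groups overlapped: means were 8.02 ± 3.76, 5.19 ± 2.95 and 6.38 ± 1.62 (SD, n = 5 each). No group difference passed the test (limma adjusted p = 0.317, 0.674 and 0.695). Between aged and young controls the difference was -1.13 in males and 0.21 in females. The difference of 1.33 between these had an unadjusted p of 0.0205 and a limma adjusted p of 0.523. For this interaction 0 genes were called by limma and 998 of 11345 had an unadjusted p under 0.05.

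Phlda3 (ENSMUSG00000041801, chromosome 1, 135766119 to 135769136) encodes a small pleckstrin-homology protein that restrains Akt signalling. Its levels were 3.15, 3.12, 3.52, 3.92 and 2.97 FPKM among the young controls, against 5.62, 6.04, 7.04, 5.16 and 6.30 among the aged ones. As with Cdkn1a, the groups did not overlap. Means were 3.34 ± 0.384 and 6.03 ± 0.710 (SD, n = 5 each), a log2 rise of 0.70 (SE 0.19, limma adjusted p = 0.0429). This call was close to the threshold: leaving out any young control, or aged control 1, 2 or 3, gave 0.65 to 0.74 with limma adjusted p from 0.0629 to 0.12. The call was also lost with no filter on low genes, with quantile normalization and with voom on recovered reads (adjusted p = 0.0766, 0.0508 and 0.0614). Within sexes the difference was 0.80 in males (limma adjusted p = 0.0237, with 7.75% of genes called) and 0.59 in females (limma adjusted p = 0.283, with 0.961% called).

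In the labelled libraries Phlda3 took values of 5.18, 7.54, 2.79, 3.50 and 3.20 FPKM. The 2 male libraries lay within or above the aged control range, and the 3 female libraries lay within or below the range of the young controls. The mean was 4.44 ± 1.96 (SD, n = 5), and the labelled libraries differed from aged controls by -0.43 (limma adjusted p = 0.337). It was 0.01 in males and -0.69 in females, and the difference between the sexes of -0.70 had an unadjusted p of 0.0217 and a limma adjusted p of 0.999. No gene (0%) was called by limma for this interaction, and 377 of 11345 had an unadjusted p under 0.05.

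Trp53inp1 (ENSMUSG00000028211, chromosome 4, 11156431 to 11174379) encodes a stress-induced protein that promotes phosphorylation of p53 and cell death. It was low: the young controls had 3.18, 1.17, 3.13, 1.62 and 2.98 FPKM, the aged controls 0.65, 1.08, 1.43, 2.21 and 0.96, and the labelled libraries 0.86, 0.36, 1.94, 2.53 and 1.01. Means were 2.42 ± 0.948, 1.27 ± 0.597 and 1.34 ± 0.877 (SD, n = 5 each). Both aged groups overlapped the young controls. The log2 differences from young controls were -0.58 for aged controls (limma adjusted p = 0.225) and -0.58 for the labelled libraries (limma adjusted p = 0.219). With voom they were -0.916 and -0.991 (adjusted p = 0.264 and 0.21), and without labelled libraries 2 and 5 the latter was -0.298. These values rest on 45 to 538 reads per library.

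Both apoptosis genes stayed below the threshold in every group comparison. Bax (ENSMUSG00000003873, chromosome 7, 45461697 to 45466898), which forms pores in the outer mitochondrial membrane, was at 24.80, 36.04, 24.54, 31.83 and 25.55 FPKM for the young controls. It was at 36.84, 38.98, 36.44, 31.99 and 34.03 for the aged controls and at 31.95, 35.56, 31.40, 27.14 and 42.89 for the labelled libraries. Young control 2 overlapped the aged controls, and the other 4 young controls lay below them. Means were 28.6 ± 5.15, 35.7 ± 2.70 and 33.8 ± 5.90 (SD, n = 5 each), and the difference with age was 0.32 (95% interval 0.03 to 0.62, limma adjusted p = 0.202). Against the aged controls the labelled libraries differed by -0.09 (limma adjusted p = 0.837).

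Bbc3 (ENSMUSG00000002083, chromosome 7, 16308393 to 16318205) encodes PUMA, a protein that frees Bax and Bak from inhibition. Young controls showed 5.56, 7.45, 5.42, 6.31 and 7.42 FPKM, aged controls 4.46, 6.70, 5.28, 5.62 and 5.43, and labelled libraries 8.71, 8.63, 6.76, 8.12 and 7.23. The lowest labelled library lay just above the highest aged control, a separation found in this direction for 0.749% of tested genes. Means were 6.43 ± 0.976, 5.50 ± 0.805 and 7.89 ± 0.864 (SD, n = 5 each). The difference between labelled libraries and aged controls was 0.46 (SE 0.14) and did not pass the test over all genes (limma adjusted p = 0.124). It kept its sign in both sexes, at 0.59 in males and 0.36 in females. Between aged and young controls the difference was -0.19 (limma adjusted p = 0.431).

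Of the kinases, Chek1 (ENSMUSG00000032113, chromosome 9, 36708482 to 36727065) fell with age. Chk1 acts downstream of Atr when replication stalls, and its transcript is known to be abundant in cycling cells. Young controls had 2.40, 1.71, 3.32, 2.12 and 2.27 FPKM, and aged controls 0.88, 0.59, 0.69, 0.57 and 2.11. In 4 aged controls the level lay below every young control, and aged control 5 lay among the young controls. Means were 2.36 ± 0.594 and 0.968 ± 0.650 (SD, n = 5 each), a log2 difference of -0.81 (SE 0.195, limma adjusted p = 0.0199). On scales that compress low values less it was larger, at -1.337 with a pseudocount of 0.1 and -1.43 with voom (adjusted p = 0.0203 and 0.0121). Without aged control 5 the difference was -0.99 (limma adjusted p = 0.00129). The call was lost without young control 1 or 3, or aged control 1, 2 or 3 (-0.71 to -0.81, limma adjusted p = 0.0507 to 0.0743).

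The labelled libraries had Chek1 values of 1.20, 2.26, 1.25, 1.48 and 1.60 FPKM, a mean of 1.56 ± 0.425 (SD, n = 5). Except for aged control 5 they lay above all aged controls, and they overlapped the young controls through library 2. The differences were 0.42 from aged controls (limma adjusted p = 0.376) and -0.39 from young controls (limma adjusted p = 0.251), neither called. With voom they were 0.831 and -0.599 (adjusted p = 0.285 and 0.251). Chek1 was measured with 55 to 337 reads per library.

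The mean log2(FPKM + 1) of 24 proliferation genes lay between 4.53 and 4.69 for all young controls, and at 3.94, 3.83, 3.97, 3.80 and 4.69 for aged controls 1 to 5. Aged control 5 was thus the one aged control at the young level for both Chek1 and this list. In the labelled libraries the list stood at 4.08, 3.84, 4.19, 4.26 and 3.45, and library 2, with the highest Chek1 of its group, was not the highest for the list. Of the 21 tested proliferation genes, Cdk1, the kinase of mitotic entry, fell with age (-0.66, limma adjusted p = 0.0434) and the other 20 were not called. Over all tested genes 4.42% were called. The median of the list was -0.58, beside -0.02 for all genes. At an unadjusted p under 0.05 there were 16 of the 21, beside 19.96% of all genes. Between labelled libraries and young controls limma called 3 of the 21, all lower, beside 1.63% of all genes. The median there was -0.77 (all genes -0.06), and 19 had an unadjusted p under 0.05, beside 21.2% of all genes. Against aged controls 0 of the 21 were called (background 1.55%), with a median of -0.16 (all genes -0.03). The part of cycling cells in the Chek1 result was not tested.

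**Figure D3:**
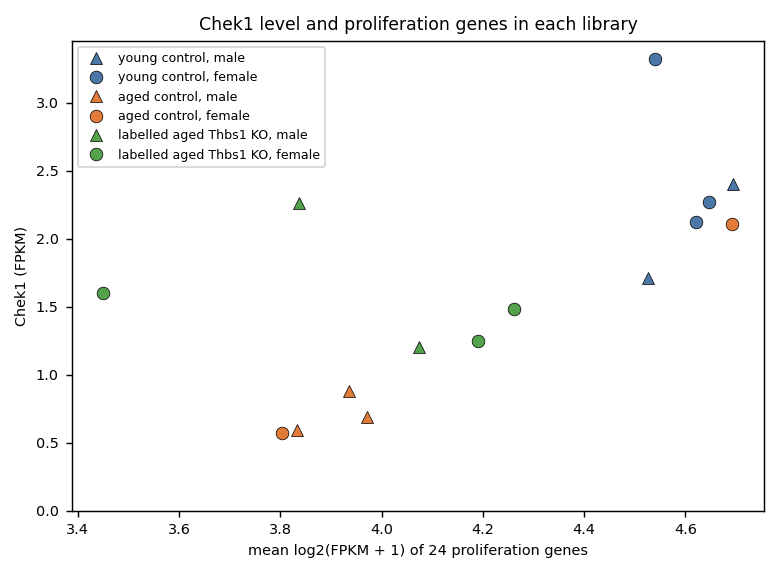
Chek1 FPKM (y axis) against the mean log2(FPKM + 1) of 24 proliferation genes (x axis) in each of the 15 libraries, by group and sex. Aged control 5 lies with the young controls on both axes, and 2 labelled knockout libraries at 3.45 and 3.84 on the x axis have Chek1 above that of the 4 lowest aged controls.

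Chek2 (ENSMUSG00000029521, chromosome 5, 110839979 to 110874145), the kinase activated by Atm at DNA breaks, stood at 14.59, 14.50, 15.82, 15.62 and 14.89 FPKM in the young controls. Aged controls had 10.36, 10.95, 11.73, 13.85 and 17.54, and labelled libraries 11.54, 13.43, 12.32, 16.36 and 7.38. The young controls were tightly grouped, and in each aged group 4 libraries lay below, and 1 above, all young controls. Means were 15.1 ± 0.602, 12.9 ± 2.92 and 12.2 ± 3.26 (SD, n = 5 each). The differences from young controls, -0.23 for aged controls (limma adjusted p = 0.444) and -0.32 for the labelled libraries (limma adjusted p = 0.283), did not pass the test.

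Other genes of the pathway were read from lists of known targets and partners. Of 23 tested further p53 targets, 2 rose with age and 0 fell, beside 4.42% of all genes called, with a median of 0.00. voom called 1 of the 23, and 7 had an unadjusted p under 0.05, beside 19.96% of all genes. Plk2, a polo-like kinase induced by stress, rose from 6.03 ± 1.07 to 17.0 ± 5.23 FPKM (log2 difference 1.315, limma adjusted p = 0.00259), and Sulf2, an extracellular sulfatase, from 0.640 ± 0.369 to 1.74 ± 0.418 (0.76, limma adjusted p = 0.0485). Between the labelled libraries and aged controls 0 of the 23 were called by limma or voom. An unadjusted p under 0.05 was reached by 4, beside 12.9% of all genes. Of 15 tested p53 regulators, 0 were called with age by limma or voom. For 1 of them the unadjusted p was under 0.05, beside 19.96% of all genes.

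Of 22 tested partners of the checkpoint kinases, 3 fell with age and 0 rose, beside 4.42% of all genes called (140 of 11345 fell). Their median difference was -0.38, beside -0.02 for all genes. voom also called 3, and 9 had an unadjusted p under 0.05, beside 19.96% of all genes. Tipin, which protects stalled forks and promotes Chk1 activation, fell from 49.6 ± 7.43 to 26.8 ± 15.3 FPKM (-0.99, limma adjusted p = 0.0258). Wee1, the kinase that holds back entry into mitosis, fell from 38.5 ± 3.69 to 24.8 ± 3.67 (-0.62, limma adjusted p = 0.0402). Cdc25a, the phosphatase that Chk1 marks for destruction, fell from 8.55 ± 0.715 to 5.35 ± 1.42 (-0.61, limma adjusted p = 0.0414). In the labelled libraries against aged controls 0 of the 22 were called by limma or voom. An unadjusted p under 0.05 was reached by 1, beside 12.9% of all genes. The median was 0.04 (all genes -0.03). Of 15 tested mitochondrial apoptosis partners 0 were called with age by limma or voom, with a median of -0.01. For 4 of them the unadjusted p was under 0.05, beside 19.96% of all genes. Between the labelled libraries and aged controls 0 of the 15 p53 regulators and 0 of the 15 apoptosis partners were called by limma or voom. At an unadjusted p under 0.05 there were 3 and 2, beside 12.9% of all genes. Against young controls 0 genes of these 4 lists were called by limma or voom, with 8 of the 23 targets, 4 of the regulators, 7 of the 22 partners of the kinases and 5 of the apoptosis partners at an unadjusted p under 0.05, beside 21.2% of all genes. Between the sexes, limma called Sesn1 and Fas among the targets (2 of 23 tested) and Cop1 among the regulators (1 of 15). It also called Tipin and Rad17 among the kinase partners (2 of 22). Each was higher in females by 0.41 to 0.61 in log2, in a comparison that called 12.9% of all genes.

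The genes whose log2 levels followed the called genes most closely over the 15 libraries were named by Pearson's r, as a description that includes the group differences and shared depth. Nearest to Cdkn1a were Cited4 (r = 0.905), a transcriptional co-activator, Ackr1 (r = 0.879), an atypical chemokine receptor, and Serping1 (r = 0.875), the inhibitor of complement C1. Nearest to Phlda3 were Fam57a (r = 0.869), Cbfa2t3 (r = 0.857), a transcriptional co-repressor, and Tmem150a (r = 0.854). Among the nearest to Chek1 were Gmnn (r = 0.887), which encodes the replication inhibitor geminin, and Dscc1 (r = 0.886), part of a clamp loader for sister chromatid cohesion.

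Within groups, the 10 genes were compared in 45 pairs, using deviations from group means over the 15 libraries and permutations within groups. Of these pairs 2 passed after adjustment. Trp53 and Ccng1 ran opposite to each other (r = -0.809, rho = -0.868; permutation p = 3e-05 and 7e-05; adjusted p = 0.00135 and 0.00315). The relation was -0.768 without the 2 libraries farthest from the median, -0.95 in the 7 male and -0.561 in the 8 female libraries. The values by sex, here and below, use deviations from the means of each group and sex. Each such mean rests on 2 or 3 libraries, so these values are another measure than the r over all 15. Mdm2 and Trp53inp1 varied in the same direction between libraries (r = 0.812, rho = 0.807; permutation p = 0.00085 and 0.0009; adjusted p = 0.0191 and 0.0202). That relation was 0.71 without the 2 farthest libraries, 0.82 in males and 0.831 in females. The permutations treated the libraries of a group as exchangeable, so their p-values take no account of sex or the share of rRNA-like reads. Medians of Trp53, Ccng1, Mdm2 and Trp53inp1 differed with that share. The part of sex and of the share in these 2 relations was not tested.

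Several of these genes also moved with the share of rRNA-like reads, most plainly Mdm2. In the 7 libraries with more than 1% of such reads Mdm2 was 4.94 to 9.86 FPKM, and in the other 8, with 0.592% to 0.952%, it was 11.51 to 15.68, with no overlap. How many of all tested genes separate at this split was not counted. The main axis of variation over all tested genes, with 38.8% of the variance, also set these 7 libraries apart from the other 8. The separation is therefore not shown to be particular to Mdm2. Medians for Trp53inp1 were 1.01 against 2.37 FPKM, for Ccng1 4.09 against 8.12, for Chek2 11.5 against 15.3, and for Bax 36.4 against 29.3. For Trp53 they were 101.9 against 89.92, with overlapping ranges. For the 3 genes called with age they were 6.05 against 3.52 (Cdkn1a), 5.62 against 3.51 (Phlda3) and 1.20 against 2.115 (Chek1), all with overlapping ranges. Of the libraries over 1%, 6 were male and 1 was female, so the share and sex largely coincide. The male library under 1%, young control 1, had the highest Mdm2 of all (15.68), and the female library over 1%, labelled library 5, had the lowest Mdm2 among females (9.13). A sex difference with the share in the model was not tested. With the share as a covariate, the log2 difference of Mdm2 between labelled libraries and aged controls turned from -0.10 to 0.22, neither called (limma adjusted p = 0.89 and 0.472). The 3 age calls held, at 0.91, 0.66 and -0.81 for Cdkn1a, Phlda3 and Chek1 (limma adjusted p = 0.00165, 0.0116 and 0.0143).

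**Figure D4:**
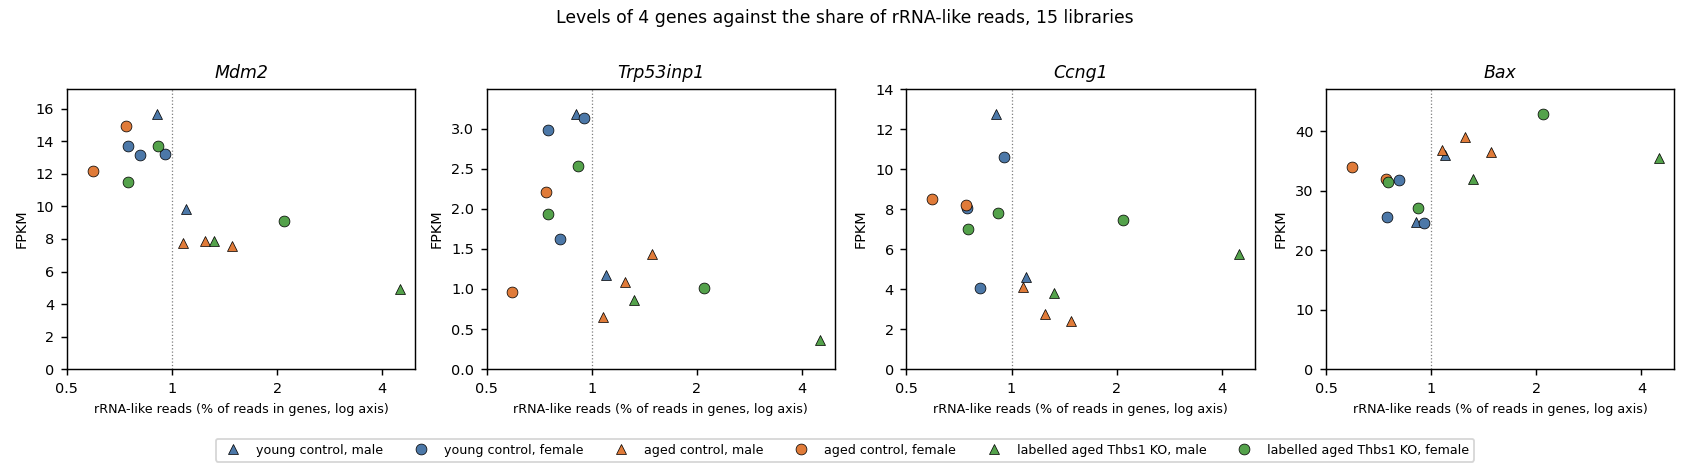
FPKM of Mdm2, Trp53inp1, Ccng1 and Bax (y axis, from 0) against the share of rRNA-like reads in percent (x axis, log scale) in the 15 libraries, by group and sex. Mdm2 is at or under 9.86 in the 7 libraries above 1% and at or over 11.51 in the 8 below.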

How the data were processed

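Bulk RNA-seq of sorted mouse HSCs gave 15 libraries in 3 groups of 5. The authors' deposited table holds FPKM rounded to 2 decimals. Per the submitters' processing notes, FastQC 0.11.5, STAR and edgeR were used with GRCm38 (mm10). The counting settings, strand among them, were not stated in the sources used. Cdkn1a and Bax each overlap another annotated gene in GENCODE M21, not analysed here, so some reads may be shared.

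Reads were recovered from the steps of low values: in held-out genes at least 97.5% of values were whole within the rounding of the table, against at most 12.1% by chance. Values deposited as FPKM were analysed as log2(FPKM + 1), which understates changes of low genes. All 11345 genes averaging 1 FPKM or more, the 10 members among them, were fitted in 1 limma 3.58.1 model (R 4.3.3, two-sided, Benjamini-Hochberg over all tested genes, called at an adjusted p under 0.05). The pipeline was tested on simulated data. All 10 genes were named, with every called gene of the 4 pathway lists (at most 6 per direction) and the 3 likest genes of each called member; some single genes are not reported here. Sex came from library names. Alternatives covered the pseudocount (0.1), filter, normalization, sex, replicate block, column grouping, variance model, voom and omitted libraries. The members and lists were chosen with earlier results of these data known.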

Additional observations from a re-analysis of the deposited data

Results flagged for a closer look

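Chek1 in aged controls held 1 library far from the other 4. Aged control 5 measured 2.11 FPKM, and on the log2(FPKM + 1) scale its gap to the nearest of the others made up 0.736 of the range of the group, above the Dixon limit of 0.71 for 5 values. It was the only one of 30 gene and group combinations past that limit, and chance alone passes about 1 in 20.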

How the results depend on the processing

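Apart from omissions of 1 library, 78 counts of calls were recomputed, of which 67 stayed within 1.5 times the value reported and 11 moved, and of 390 recomputed differences of single genes 346 kept their sign and their side of the threshold. Grouping columns by GEO's descriptions called 0 genes for age (0 of the 10 genes), 0 for labelled knockout against aged control and 15 for labelled knockout against young control. Under it the age difference turned for 9 genes: Cdkn1a -0.51, Phlda3 -0.092, Mdm2 0.073, Trp53inp1 0.105, Ccng1 0.356, Bax -0.203, Bbc3 0.267, Chek1 0.553 and Chek2 0.189. Labelled knockout minus aged control turned for Trp53 (-0.196), Cdkn1a (0.459), Mdm2 (0.266), Bax (0.157), Bbc3 (-0.115) and Chek1 (-0.432), and labelled knockout minus young control for Trp53 (-0.119), Cdkn1a (-0.051), Phlda3 (-0.198), Mdm2 (0.339), Trp53inp1 (0.159), Ccng1 (0.674), Bax (-0.045), Chek1 (0.121) and Chek2 (0.071). With the rRNA-like share as a covariate, called genes numbered 1030 for age, 290 for labelled knockout against aged control (1 of the 10 genes, Cdkn1a) and 104 against young control, and uncalled differences turned for Trp53 (-0.024), Mdm2 (0.22) and Chek2 (0.02) against aged controls and Ccng1 (0.036) against young controls. Without labelled libraries 2 and 5, 1030 genes were called for age and 1 of the 10, Cdkn1a, against aged controls, where Mdm2 (0.139) and Chek2 (0.062) turned. Sex as a covariate raised the calls against young controls to 429. Differences near 0 also turned: Trp53 with age (-0.079) and against young controls (-0.013) under quantile normalization, Trp53 against aged controls under TMM scaling (-0.002), and Trp53inp1 against aged controls with a pseudocount of 0.1 (-0.067), quantile normalization (-0.07), TMM scaling (-0.002), sex as a covariate (-0.086) and voom (-0.074). Leaving out 1 library at a time gave 311 to 943 called genes with age (1 to 3 of the 10 genes), 95 to 229 for labelled knockout against aged control (0 to 1), 98 to 676 against young control (0) and 529 to 2872 between sexes (0 to 3). Against aged controls the differences then spanned -0.052 to 0.069 for Trp53, -0.243 to 0.084 for Mdm2, -0.167 to 0.177 for Trp53inp1 and -0.197 to 0.066 for Chek2. The cause of these changes was not tested. With a replicate block the calls numbered 499, 152 and 158 in the 3 group comparisons, and the age difference of Phlda3 lost its call (0.696, limma adjusted p = 0.0619). Same-numbered libraries did not pair throughout: their deviations from group means correlated at -0.455 to 0.527, with 6 of 15 pairs over 0.1. Those numbered 2 correlated at 0.372 to 0.489. Same-numbered libraries also share their sex except at number 3, so this check cannot tell a shared batch from sex. Depth limits Chek1, Trp53inp1 and Phlda3 most, since some libraries hold under 100 of their reads.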
